A study of Drosophila melanogaster with 15 samples.

Results

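The Methuselah family was examined in ovarian somatic cells (OSCs), a cultured line of somatic cells from the Drosophila melanogaster ovary that has no germ cells. Its members were the 10 listed genes mth, mthl1, mthl2, mthl3, mthl4, mthl5, mthl8, mthl9, mthl10 and mthl14 among 16727 genes in the count table. They were selected on earlier results of these data, in which mth and mthl9 were among the strongest decreases after L(3)mbt depletion. Of the 10, 9 had reads and passed the filter on low counts, and mthl8 had 0 counts in all 9 libraries. A count of 0 allows up to 3 counts, or 0.0958 to 0.158 CPM (counts scaled to library size) depending on the library, for counting error only. A further 6 family genes in the table (mthl6, mthl7, mthl11, mthl12, mthl13 and mthl15) were not on the list and are given for comparison. Poly-A RNA was sequenced from OSCs after 48 h of RNA interference (RNAi) against l(3)mbt (L(3)mbt KD), against lint-O, listed as CG2662 (Lint-O KD), or against EGFP (control), with 3 libraries each. All 9 libraries came from the same cell line. The study names them as triplicates of each RNAi condition and, for lint-O mRNA levels in these conditions, as 3 biological replicates. It does not say whether these were separate transfections, so p-values measure the spread between these libraries.

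Methuselah-family proteins are G protein-coupled receptors of the secretin-like class with an extracellular ligand-binding domain, and the family is found in insects. Flies mutant for mth live longer and resist stress better, and the peptide Stunted, which is also the epsilon subunit of the mitochondrial ATP synthase, is a ligand of Mth. Mthl1, also called Mist, is a receptor for Folded gastrulation (Fog), which acts through a G12/13-class G protein on Rho1 and contracts cells. Mthl10 is the receptor for growth-blocking peptides and signals through phospholipase C and calcium, and mthl5 has a role in embryonic heart formation. L(3)mbt is a chromatin protein that represses transcription, and Lint-O is a protein that binds it.

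The libraries held 19139572 to 32274601 reads assigned to genes. The targeted gene l(3)mbt was at 55.6% of control in L(3)mbt KD, and CG2662 was at 16.9% of control in Lint-O KD. In Lint-O KD, l(3)mbt was higher than in control by 0.41 on the log2 scale. The OSC markers tj, fs(1)Yb, piwi and Fas3 were present in every library, with summed levels of 2211 to 2253 CPM in L(3)mbt KD, 2115 to 2221 CPM in Lint-O KD and 2048 to 2230 CPM in control, mostly from piwi. Fas3 was higher in L(3)mbt KD, at 29.4 to 35.2 CPM, than in control, at 16.3 to 18.5 CPM (log2 fold change 0.89, edgeR adjusted p 6.93e-09). Control replicate 3 stood apart in its share of reads outside genes, 2.76% of all reads counted, against 7.97% and 8.45% in the other control libraries.

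The neighbouring genes mthl9, mthl10 and mth were lower in both knockdowns, and they lie inside another gene. On chromosome 3L of release 6 (dm6), mthl9 (329822 to 332309), mthl10 (332801 to 342915) and mth (343378 to 346957) are transcribed in tandem from the minus strand over 17.1 kb, with gaps of 491 and 462 bases. All 3 lie within the span of Ptpmeg (328097 to 356050, 28.0 kb, plus strand), which encodes a protein tyrosine phosphatase, and the exons of the 3 receptor genes share 0 bases with the exons of Ptpmeg, lying between neighbouring exons of it. The 100 bases upstream of their outermost annotated start sites are shown with those of mthl14, a member that was higher in both knockdowns, because these are the stretches next to which the opposite changes were measured. Capitals mark matches to the motifs named after them, and every sequence runs 5′ to 3′ on the strand of its gene, from the RefSeq release 6 genome.
mth (chr3L:346958-347057, minus strand): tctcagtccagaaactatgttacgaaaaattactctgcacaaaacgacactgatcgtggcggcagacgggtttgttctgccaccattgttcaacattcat
mthl9 (chr3L:332310-332409, minus strand): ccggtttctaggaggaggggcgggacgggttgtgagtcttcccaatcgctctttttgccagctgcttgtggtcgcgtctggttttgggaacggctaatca
mthl10 (chr3L:342916-343015, minus strand): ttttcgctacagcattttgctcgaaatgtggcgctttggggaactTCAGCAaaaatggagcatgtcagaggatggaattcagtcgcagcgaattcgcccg
mthl14 (chr3L:247391-247490, plus strand): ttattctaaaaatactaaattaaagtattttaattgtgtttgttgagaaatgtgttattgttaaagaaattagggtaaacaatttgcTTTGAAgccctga
No annotated exon overlaps any of these 4 stretches, and those of mth, mthl9 and mthl10 lie within Ptpmeg. In the 250 bases upstream, both strands were searched for TATAAA, the letters of the core promoter element of that name, for TATCGATA, the DNA replication-related element, and for the hexamers TTTGAA as well as TGCTGA, which were chosen after the values were known. These were held by 43%, 8%, 36.2% and 11.3% of the 250-base upstream windows of 13944 genes in that order. mth had no match to any of the 4. mthl9 had a TATAAA match 202 bases before its start. mthl10 had TTTGAA 131 bases before its start and TGCTGA 214 and 55 bases before it, the last being the capitals TCAGCA, its reverse complement. mthl14 held TATAAA at 133 bases, TATCGATA at 181 bases and TTTGAA at 13 bases before its start. The 3 falling genes had no motif of these 4 in common. GC content over the 250 bases was 34.8% for mth, 42.4% for mthl9 and 45.2% for mthl10, against 25.6% for mthl14.

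mthl9 was the second most abundant member in control OSCs and became a minor one after L(3)mbt depletion. It had 136, 129 and 207 counts in L(3)mbt KD, 863, 745 and 738 counts in Lint-O KD and 2008, 1974 and 3071 counts in control. Scaled to library size, this was 5.20, 5.67 and 7.15 CPM in L(3)mbt KD, 35.7, 33.3 and 38.8 CPM in Lint-O KD, and 91.3, 96.1 and 98.1 CPM in control. The 3 groups did not overlap, and Lint-O KD lay between the others. The log2 fold change was -3.98 ± 0.10 (SE) in L(3)mbt KD, or 6.35% of the control level, given without a test because this comparison chose the gene. In Lint-O KD it was -1.41 ± 0.08, or 37.7% of control, with an edgeR quasi-likelihood adjusted p of 5.69e-12. In bulk RNA, fewer cells with a transcript and less transcript per cell cannot be told apart, here and below.

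mth itself showed the same order of groups. It had 90, 64 and 78 counts in L(3)mbt KD, 582, 490 and 426 counts in Lint-O KD and 884, 867 and 1253 counts in control, or 2.70 to 3.44 CPM in L(3)mbt KD, 21.9 to 24.1 CPM in Lint-O KD and 40.0 to 42.2 CPM in control. No library of one group overlapped another group. The log2 fold change was -3.77 ± 0.10 in L(3)mbt KD, 7.32% of control, and -0.84 ± 0.08 in Lint-O KD, 55.9% of control, with an adjusted p of 1.5e-08 by edgeR in Lint-O KD. The log2 difference of L(3)mbt KD from Lint-O KD was -2.93. Both values of L(3)mbt KD are given without a test, because its libraries chose the gene.

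mthl10, the growth-blocking peptide receptor, was the scarcest member with reads in the knockdowns. It had 15, 14 and 15 counts in L(3)mbt KD, 37, 28 and 34 counts in Lint-O KD, and 57, 59 and 97 counts in control. Per library this was 0.518 to 0.616 CPM in L(3)mbt KD, 1.25 to 1.79 CPM in Lint-O KD and 2.59 to 3.10 CPM in control, again without overlap. The log2 fold change was -2.33 ± 0.24 in L(3)mbt KD, without a test, and -0.92 ± 0.21 in Lint-O KD with an edgeR adjusted p of 0.00169. Without Lint-O KD replicate 2 the call in Lint-O KD was lost (log2 fold change -0.80, adjusted p 0.0182), and no other left-out library moved it across the threshold of 0.01. Taken as a sum, mth, mthl9 and mthl10 made up 2.78% to 3.32% of all member CPM in L(3)mbt KD, 15.4% to 17.3% in Lint-O KD and 33.1% to 35.7% in control. The ratio of mthl9 to mth CPM was 1.48 to 1.73 in Lint-O KD, below every control library at 2.27 to 2.45, whereas in L(3)mbt KD it spread from 1.51 to 2.65.

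Ptpmeg, the gene around the cluster, went the other way. It had 95.6 to 99.8 CPM in L(3)mbt KD, 81.8 to 90.4 CPM in Lint-O KD and 61.5 to 63.8 CPM in control. Its log2 fold change was 0.64 ± 0.06 in L(3)mbt KD and 0.45 ± 0.06 in Lint-O KD, where the adjusted p by edgeR was 1.8e-06. Reads of unspliced Ptpmeg RNA would cover the exons of the receptors on the opposite strand. The study made its libraries with a stranded kit, but a strand setting for the counting is not given in the sources used here. Whether such reads were counted with the receptor reads therefore cannot be told. The measured directions were opposite in both knockdowns. Atac3, the next gene on the mthl9 side, had log2 fold changes of -0.15 in L(3)mbt KD and -0.06 in Lint-O KD, and CG1231 on the other side had 1 to 10 counts per library and was not tested.

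**Figure D1:**
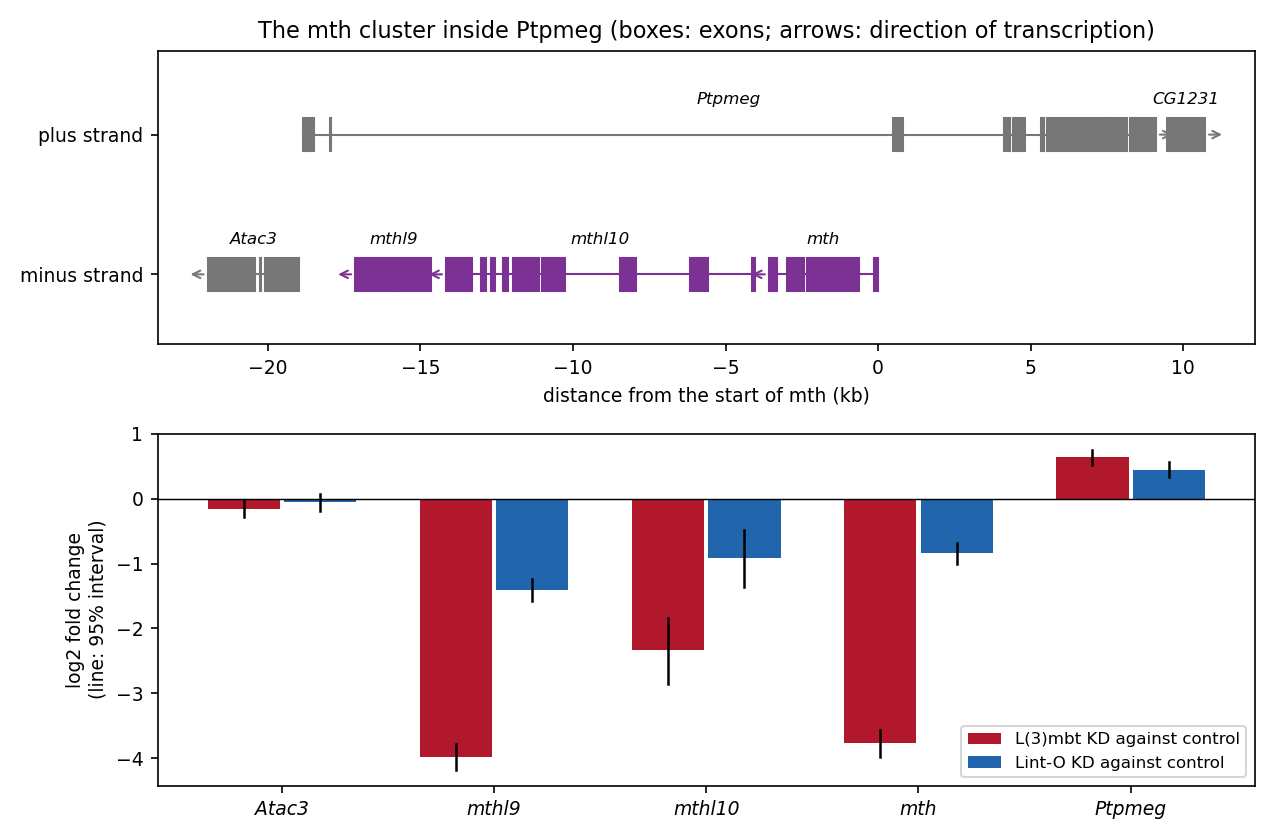
Upper panel: positions of mthl9, mthl10, mth, Ptpmeg and the flanking genes in kb from the start of mth, by strand, with boxes for exons. Lower panel: log2 fold changes of L(3)mbt KD (red) and Lint-O KD (blue) against control with 95% intervals for the tested genes; the 3 receptor genes lie below 0 in both knockdowns, from -3.98 to -0.84, and Ptpmeg lies above 0 at 0.64 and 0.45.

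The members mthl14 and mthl2 were higher in both knockdowns, and both were low in control OSCs. mthl14 had 986, 933 and 915 counts in L(3)mbt KD, 1064, 899 and 723 counts in Lint-O KD and 173, 153 and 187 counts in control. This was 31.6 to 41.0 CPM in L(3)mbt KD, 38.0 to 44.0 CPM in Lint-O KD and 5.97 to 7.86 CPM in control. The knockdowns overlapped each other and neither overlapped control. The log2 fold change was 2.39 ± 0.11 in L(3)mbt KD and 2.54 ± 0.11 in Lint-O KD (edgeR adjusted p 1.95e-12), and the difference between the knockdowns was -0.15 (95% interval -0.36 to 0.05). mthl14 lies 79.5 kb from mthl9 on the same arm (3L, 247491 to 250305, plus strand), and overlaps DIP2 on the opposite strand by 77 bases of its 2091 in exons. DIP2 had log2 fold changes of -0.25 in L(3)mbt KD and 0.14 in Lint-O KD.

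mthl2 was near the limit of detection in control. It had 143, 131 and 133 counts in L(3)mbt KD, 120, 82 and 68 counts in Lint-O KD, and 5, 1 and 6 counts in control. It passed the filter only through the knockdown libraries. Summed counts, scaled to library size, were 32.2-fold higher in L(3)mbt KD than in control (exact 95% interval for counting error 18.2 to 62.8) and 25.3-fold higher in Lint-O KD (14.3 to 49.6). The fitted log2 fold change was 4.98 in L(3)mbt KD and 4.61 in Lint-O KD, both given without a test, since the gene could be fitted only because it was high there. Its last 29 exon bases (gene at 3L, 5604790 to 5607190) overlap Eaf6 on the opposite strand, whose log2 fold changes were -0.14 and -0.21 in L(3)mbt KD and Lint-O KD.

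Some markers of germ cells were also higher in both knockdowns. Of 5 germline genes listed, vas and bam were called higher in both and osk was not called in either. nos and zpg were also higher in both, but they passed the filter only through the knockdown libraries. They had 0 to 10 and 1 to 4 counts in control, so no test is given for them. All 5 summed to 366 to 426 CPM in L(3)mbt KD and 193 to 202 CPM in Lint-O KD. In control the sum was 8.24 to 9.46 CPM. Most of the sum in the knockdowns came from vas, at 337 to 391 CPM in L(3)mbt KD and 178 to 186 CPM in Lint-O KD. None of the 5 was at 0 counts across a whole group. The 4 hemocyte markers summed to 11.5 to 12.9 CPM in L(3)mbt KD, 11.3 to 15.5 CPM in Lint-O KD and 14.5 to 17.3 CPM in control, with He at 0 or 1 count and srp the most abundant. The 3 neuron markers summed to 69.2 to 72.5 CPM in L(3)mbt KD, 76.4 to 93.6 CPM in Lint-O KD and 65.4 to 113.9 CPM in control, nearly all from elav, and the 2 muscle markers to 39.6 to 40.8 CPM in L(3)mbt KD, 34 to 40.8 CPM in Lint-O KD and 27.3 to 33 CPM in control. In L(3)mbt KD, the muscle marker Act57B was called higher (log2 fold change 0.82, edgeR adjusted p 2.55e-06) and Mhc was not (-0.07). There srp was called lower (-0.44, edgeR adjusted p 0.00237). The other tested hemocyte and neuron markers were not called in L(3)mbt KD, and no hemocyte, neuron or muscle marker was called in Lint-O KD. The part of any of these cell types in the changes of the receptors was not tested.

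The other 4 expressed members had log2 fold changes between -0.10 and 0.41. mthl3 was the most abundant member per length in every group, at 53.9 ± 0.54 FPKM (reads scaled to library size and exon length) in L(3)mbt KD, 53.8 ± 1.92 FPKM in Lint-O KD and 49.8 ± 1.34 FPKM in control (SD, n = 3 each). Its log2 fold change was 0.12 in L(3)mbt KD (0.06 without control replicate 3), and 0.11 in Lint-O KD with a 95% interval of 0.00 to 0.23 and an edgeR adjusted p of 0.104 (0.07 without control replicate 3). mthl4, which lies 1049 bases from mthl3 on 2R, had log2 fold changes of 0.25 in L(3)mbt KD and 0.23 in Lint-O KD (95% interval -0.04 to 0.49, adjusted p 0.183). Without control replicate 3, at 9.07 CPM against 11.8 and 13.2 CPM in the other control libraries, these were 0.07 in L(3)mbt KD and 0.05 in Lint-O KD. Their proteins are 81.4% identical and 398 exon stretches of 50 bases occur in both genes, 19.8% of those of mthl3 and 25.1% of those of mthl4, so how reads were split between them is uncertain. No other family gene shared an exon stretch of that length with the rest of the family.

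mthl1, the Fog receptor, had 80.5 to 91.4 CPM in L(3)mbt KD, 82.9 to 90.2 CPM in Lint-O KD and 89.6 to 96.8 CPM in control. The groups overlapped, and the log2 fold changes were -0.10 in L(3)mbt KD and -0.10 in Lint-O KD, the last with a 95% interval of -0.23 to 0.03 and an edgeR adjusted p of 0.219. mthl5 had 34.4 to 36.2 CPM in L(3)mbt KD, 27.7 to 28.5 CPM in Lint-O KD and 24.4 to 28.5 CPM in control, with log2 fold changes of 0.41 in L(3)mbt KD and 0.08 in Lint-O KD (95% interval -0.08 to 0.23, adjusted p 0.444). All 3 L(3)mbt KD libraries were above all 6 others. mthl5 lies inside CG31368 on the opposite strand without shared exon bases, and CG31368 had log2 fold changes of -0.44 in L(3)mbt KD and -0.13 in Lint-O KD.

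**Figure D2:**
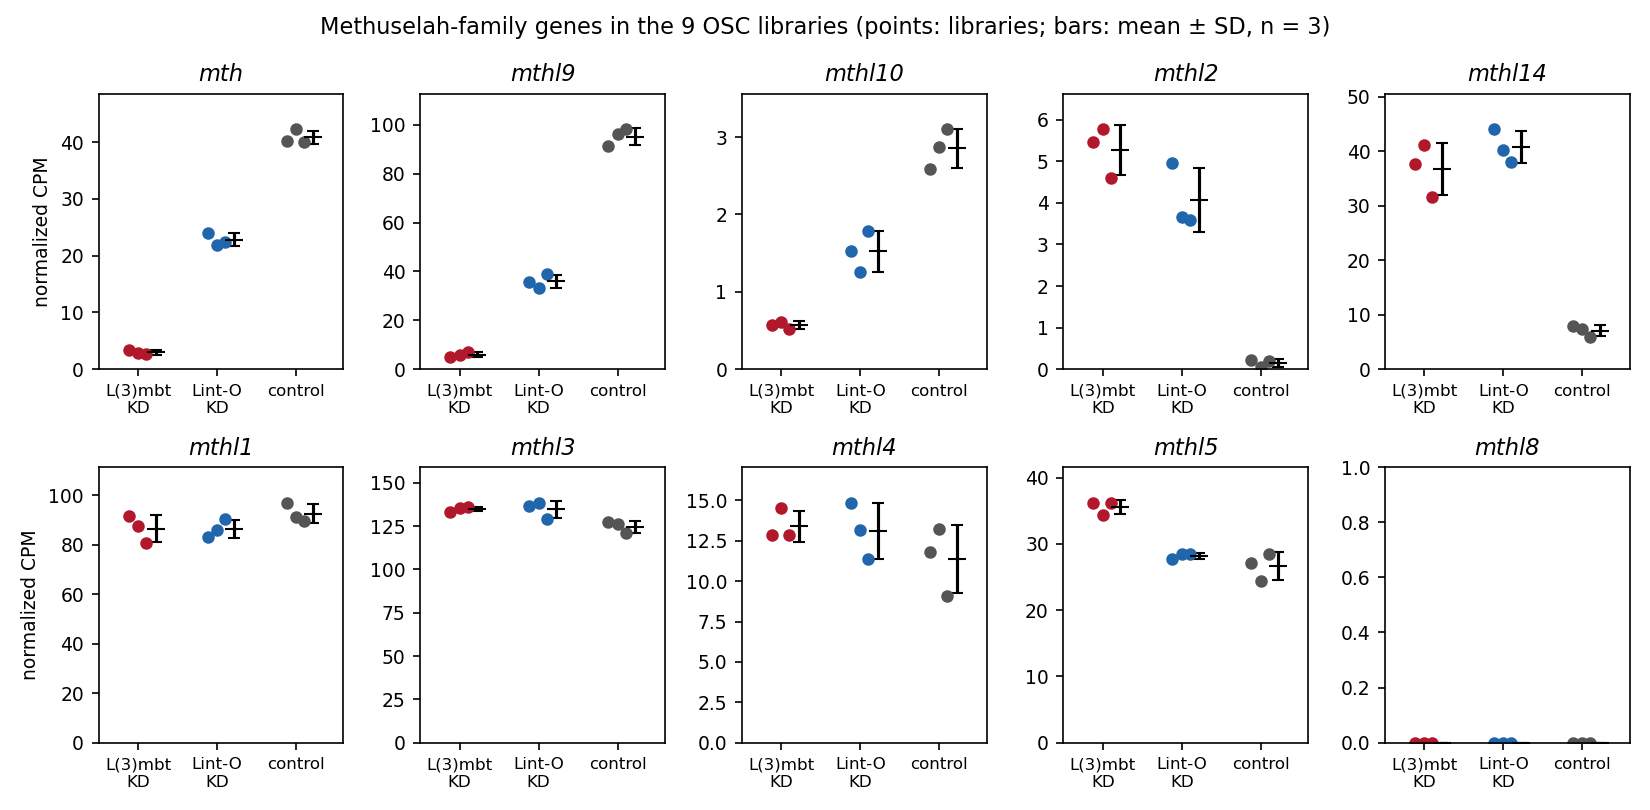
Normalized CPM of each member in the 9 libraries, with L(3)mbt KD left, Lint-O KD in the middle and control right; points are libraries and the black bars mean ± SD (n = 3). The groups of mth, mthl9 and mthl10 do not overlap, mthl14 and mthl2 are higher in both knockdowns than in control, and mthl8 is at 0 in every library.

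These changes reordered the family. In control OSCs the order per exon length was mthl3, mthl9 (44.6 ± 1.64 FPKM), mthl1 (18.2 ± 0.74), mth (16.9 ± 0.51), mthl5 (13.7 ± 1.05), mthl4 (5.89 ± 1.09), mthl14 (3.39 ± 0.48), mthl10 (0.685 ± 0.061) and mthl2 (0.077 ± 0.046), and no 2 neighbours in this order overlapped between libraries. In Lint-O KD, mthl14 came second at 19.5 ± 1.43 FPKM, followed by mthl1 and mthl9 at 17 ± 0.72 and 16.8 ± 1.30 FPKM, which overlapped. In L(3)mbt KD, mthl5, mthl14 and mthl1 followed mthl3 at 18.2 ± 0.53, 17.6 ± 2.28 and 17 ± 1.08 FPKM with overlap between neighbours, and mthl9 at 2.82 ± 0.48 FPKM overlapped mthl2 at 2.59 ± 0.30 FPKM. The summed CPM of the members was 312 to 328 in L(3)mbt KD, 364 to 372 in Lint-O KD and 395 to 405 in control, without overlap. Of this, mth, mthl9 and mthl10 together gave 9.10 to 10.4 CPM in L(3)mbt KD, 56.4 to 63.0 CPM in Lint-O KD and 134 to 141 CPM in control. Since mth and mthl9 were known to fall in L(3)mbt KD when the members were chosen, nothing is read from the lower sum there.

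At a false discovery rate of 0.01, 3 of the 9 tested members were higher and 3 lower in L(3)mbt KD than in control, where 22.6% of 8726 tested genes were higher and 15.9% lower. This comparison chose the members and nothing is read from it. In Lint-O KD, 2 members were higher (mthl2 and mthl14) and 3 lower (mth, mthl9 and mthl10) than control, where 16.8% of tested genes were higher and 7.58% lower. Of the higher members mthl2 was tested only because it was high in the knockdowns, and with at least 10 counts required in every library 1 member was higher. Both comparisons share the control libraries. Between L(3)mbt KD and Lint-O KD, 1 member was higher in L(3)mbt KD (mthl5) and 3 were lower (mth, mthl9 and mthl10), where 9.24% of tested genes were higher and 6.83% lower. This count uses the same L(3)mbt KD libraries that chose the members, and nothing is read from it either. The median log2 fold change of the 9 members was 0.12 in L(3)mbt KD and 0.08 in Lint-O KD, beside -0.02 in L(3)mbt KD and 0.01 in Lint-O KD over all tested genes.

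**Figure D3:**
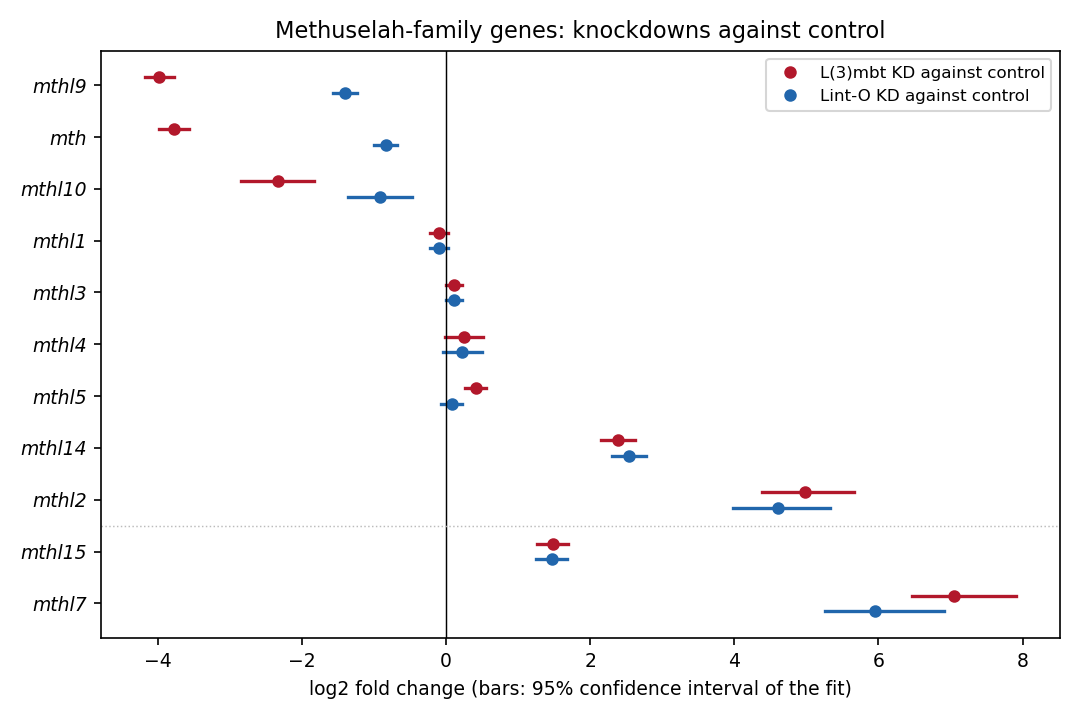
Log2 fold changes of L(3)mbt KD (red) and Lint-O KD (blue) against control with 95% intervals for the 9 tested members and, below the dotted line, mthl15 and mthl7. mthl9, mth and mthl10 lie left of 0 with L(3)mbt KD farther left, while mthl14, mthl2, mthl15 and mthl7 lie right of 0 in both knockdowns.

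Of the 6 family genes outside the list, 2 passed the filter, mthl7 and mthl15. mthl7 had 216, 184 and 214 counts in L(3)mbt KD and 95, 70 and 77 counts in Lint-O KD, against 3, 1 and 0 counts in control. Its summed counts were 146-fold higher in L(3)mbt KD than in control (exact 95% interval 56.6 to 536) and 68.1-fold higher in Lint-O KD (26.3 to 252). It passed the filter only through the knockdown libraries, so no test is given. Its fitted log2 fold change of 7.06 in L(3)mbt KD was 8.32 without control replicate 1 and 6.29 without control replicate 3, and that of 5.96 in Lint-O KD was 7.23 and 5.20 without the same libraries. mthl15 was at 19.4 to 22.4 CPM in L(3)mbt KD and 18.7 to 22.5 CPM in Lint-O KD, against 6.62 to 8.09 CPM in control, with log2 fold changes of 1.48 in L(3)mbt KD and 1.46 in Lint-O KD (edgeR adjusted p 4.74e-11 and 1.18e-10). mthl6, mthl11, mthl12 and mthl13 did not pass the filter.

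The proteins were compared in sequence, a comparison that used no counts. The member closest to Mth in protein sequence was Mthl2, with 61.2% identity over 522 and 518 residues, and its gene was higher in both knockdowns where mth was lower. Mthl3 and Mthl4 followed at 56.9% and 52.8% identity to Mth. The proteins of the cluster were more distant, with 27.1% identity between Mth and Mthl9, 35.1% between Mth and Mthl10 and 28.8% between Mthl9 and Mthl10. The 3 adjoining genes that were lower thus encode proteins no closer than 35.1% identity.

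The genes outside the members most like mth over the 9 libraries were sought by the distance on log2(CPM + 0.5) after centring on control, which is 0 for an identical pattern. mth and mthl9 were 1.25 apart on this scale. The nearest genes to mth outside the members were Galt (1.48), an enzyme of galactose breakdown, Cpr62Bc (1.90), a cuticle protein, CG14608 (2.01), Cpr49Ac (2.78) and eg (3.07). For mthl9 they were Cpr62Bc (1.99), Galt (2.19), CG14608 (2.48), Cpr49Ac (3.12) and CG4962 (3.78), so 4 of 5 genes were the same. Galt had log2 fold changes of -2.86 in L(3)mbt KD and -0.86 in Lint-O KD. Nearest to mthl14 were c(2)M (0.40), a synaptonemal complex protein of meiotic chromosomes, CR44316 (0.47), CG18193 (0.50), Kul (0.54) and CG11756 (0.55). A small distance did not mean an equal fitted fold change. CR44316 had log2 fold changes of 5.97 in L(3)mbt KD and 6.02 in Lint-O KD, against 2.39 and 2.54 for mthl14.

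Ligands of the receptors were detected unevenly. sun, which encodes Stunted, had 618 FPKM in L(3)mbt KD, 559 FPKM in Lint-O KD and 630 FPKM in control, with log2 fold changes of -0.03 and -0.17 in L(3)mbt KD and Lint-O KD (edgeR adjusted p 0.747 and 0.034), neither of which passed the threshold. With no filter on low counts, sun passed in Lint-O KD (-0.20, adjusted p 0.00537). Of the growth-blocking peptides, Gbp1 (listed as Gbp) rose by 1.18 log2 units in L(3)mbt KD (adjusted p 1.55e-08) and by 0.69 in Lint-O KD (7.69e-05, edgeR). Gbp2 (listed as CG11395) rose by 1.2 in L(3)mbt KD (9.19e-05) and had 0.76 in Lint-O KD with an edgeR adjusted p of 0.014, outside the threshold. Gbp3 and SP, the sex peptide, had 0 counts, and fog had 1 to 11 counts in each library and was not tested. Gbp1 and Gbp2 were thus higher in L(3)mbt KD, the group in which mthl10, their receptor, had its fewest counts.

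Genes downstream of the receptors were counted beside all tested genes, of which 22.6% were higher and 15.9% lower in L(3)mbt KD, and 16.8% higher and 7.58% lower in Lint-O KD. Of 10 Fog pathway genes, 0 were higher and 1 was lower in L(3)mbt KD, and 1 was higher and 2 were lower in Lint-O KD. In Lint-O KD, RhoGEF2, which activates Rho1, rose by 0.44 (edgeR adjusted p 1.18e-05), T48, which recruits it to the cell apex, fell by 0.68 (0.00191), and Rho1 fell by 0.21 (0.00428). Rok, the kinase that Rho1 activates, fell by 0.23 in L(3)mbt KD (0.00363). The calls of T48, Rho1 and Rok were lost without at least 1 library: that of T48 without Lint-O KD replicate 2 (-0.65, adjusted p 0.0109), that of Rho1 without control replicate 1 or any Lint-O KD library (adjusted p up to 0.0215), and that of Rok without control replicate 1 (-0.22, 0.0137) or L(3)mbt KD replicate 1 (-0.24, 0.0126). With library totals alone, the adjusted p was 0.0147 for Rho1 and 0.025 for Rok, and that of Rok was 0.0116 with at least 10 counts in every library.

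Of 7 calcium genes, 2 were higher in L(3)mbt KD and 3 in Lint-O KD, and 0 were lower in either. norpA, the phospholipase C of phototransduction, rose by 1.05 in L(3)mbt KD and 1.22 in Lint-O KD (edgeR adjusted p 9.35e-09 and 1.23e-09). Plc21C, another phospholipase C, rose by 0.46 and 0.49 (1.86e-04 and 1.81e-04). Itpr, the IP3 receptor (listed as Itp-r83A), rose by 0.46 in Lint-O KD (0.00162), a call lost without control replicate 2 (0.38, adjusted p 0.0105), with the replicate number as a block (0.018) and in a fit of only the libraries compared (0.0102), and had 0.03 in L(3)mbt KD. Of 11 G protein subunit genes 10 were tested, with 3 higher in L(3)mbt KD and 1 higher in Lint-O KD. Gbeta5, a beta subunit that pairs with RGS proteins, rose by 2.55 and 2.04 (3.3e-13 and 4.09e-11), and Galphai and Galphao rose in L(3)mbt KD by 0.23 and 0.26 (7.94e-04 and 0.00667). The call of Galphao was lost without control replicate 3 (0.16, edgeR adjusted p 0.0874), and also without control replicate 2, L(3)mbt KD replicate 1 or 2, or Lint-O KD replicate 1 (adjusted p 0.0125 to 0.0464), and in a fit of only the libraries compared (0.0133). Of 7 other family B or adhesion receptors 2 were tested, and stan, the planar polarity cadherin, rose by 0.72 and 0.66 (4.04e-07 and 3.03e-06).

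**Figure D4:**
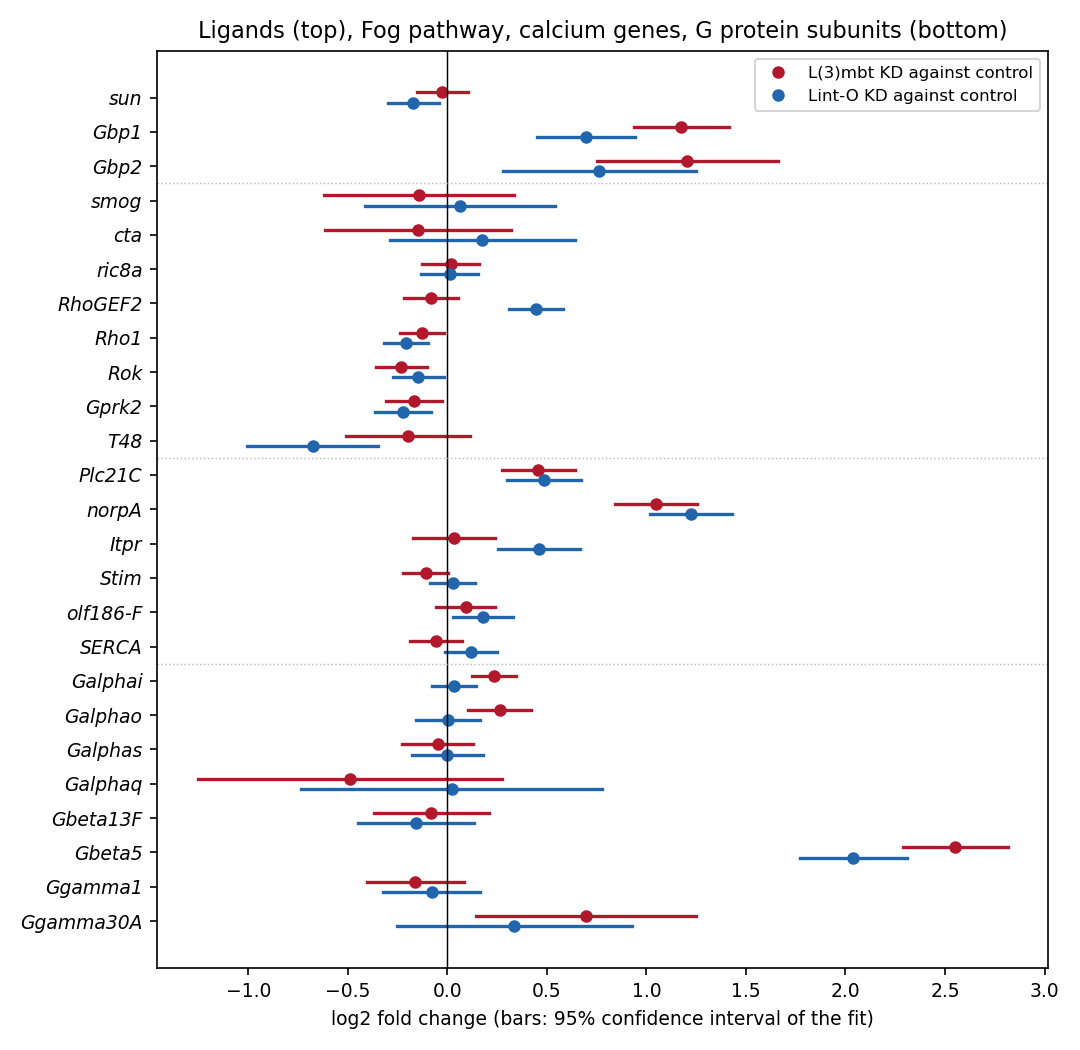
Log2 fold changes of L(3)mbt KD (red) and Lint-O KD (blue) against control, with 95% intervals, for ligands, Fog pathway genes, calcium genes and G protein subunits from top to bottom, divided by dotted lines. Most genes lie within 0.5 of 0, while Gbp1, Gbp2, norpA and Gbeta5 lie to the right in both knockdowns, and T48 lies at -0.68 in Lint-O KD.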

How the data were processed

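RNA-seq counts of OSCs, with 3 libraries per condition, were taken as deposited. Per the labels and the methods of the study, the authors removed reads of rRNA, mapped poly-A RNA reads to dm6 with HISAT2 and counted whole reads per gene with HTSeq, as raw counts without normalization. Versions, annotation and strand setting are not given in the sources used here. Rows that name no gene held 2.76% to 8.45% (no feature) and 1.47% to 1.61% (ambiguous) of all reads counted, on genes or not, and were left out. Libraries held 19139572 to 32274601 reads on genes. Each was assigned to its condition by its label.

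Genes were filtered with filterByExpr, scaled by TMM and fitted together over all 9 libraries with the quasi-likelihood test of edgeR 4.0.16 (robust, condition only, R 4.3.3), and p-values were adjusted by Benjamini-Hochberg over 8726 genes with a threshold of 0.01, the false discovery rate of the study. DESeq2 1.42.0 was an alternative. The fit was tested on simulated data. FPKM used RefSeq release 6 exon lengths, and 99.1% of listed genes matched that annotation. Intervals of ratios cover counting error only. Protein identity was taken over the shorter protein after global alignment (Biopython 1.88, gap penalties 11 and 1). The members and all gene lists were chosen with earlier results of these data known. The genes named were all members, other family genes, overlapping or adjacent genes, and genes of the ligand and pathway lists that passed the threshold or partner a member. Alternatives were other normalizations, filters and thresholds, a fit of only the libraries compared, the replicate number as a block, and each library left out. Libraries of 1 group differed beyond sampling noise, so none was counted as a duplicate. ChIP-seq samples were not analysed here. Some upstream sequences are not reported here.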

Additional observations from a re-analysis of the deposited data

How the results depend on the processing

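The count of genes lower in Lint-O KD than in control was 661 in the fit reported, 996 with no filter on low counts, 1204 at a threshold of 0.05 and 394 to 909 when each library was left out, the lowest without Lint-O KD replicate 2. At 0.05, 1238 genes were higher and 1042 lower in L(3)mbt KD than in Lint-O KD, and 340 to 787 were lower with a library left out (340 without L(3)mbt KD replicate 1, 345 and 380 without Lint-O KD replicate 2 or 3), against 596 with all. With at least 10 counts required in every library, 1 member was higher in Lint-O KD, since mthl2 was then not tested. mthl3 averaged 137 CPM in L(3)mbt KD with library totals alone. The log2 fold change of sun in L(3)mbt KD changed sign to 0.029 with library totals alone and to 0.0026 with at least 10 counts in every library, and ranged from -0.093 to 0.0041 with each library left out, and sun was called lower in Lint-O KD with no filter on low counts (-0.20); the cause was not tested. Correlations of same-numbered deviations were -0.21 to -0.13 for L(3)mbt KD and control and 0.09 to 0.26 for Lint-O KD and control. For L(3)mbt KD and Lint-O KD they were 0.01 to 0.11. Differently numbered libraries were not compared, so these values cannot tell whether replicate numbers paired the libraries. With the replicate number as a block, the count of genes lower in Lint-O KD was 771. Members called were then again 2 higher and 3 lower. In the fit of DESeq2 and under the other normalizations, the calls of members in Lint-O KD had the same counts, and without Lint-O KD replicate 2 the count of lower members was 2. Each left-out library kept 2 members higher. Depth limits mthl10, with 57 to 97 counts in a control library, and mthl2 and mthl7, with 0 to 6.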
